A study of Mus musculus with 20 samples.

Results

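The motile cilia axoneme genes described here are the protein-coding genes of the table whose mouse symbol begins with Dnah, Dnai, Dnaaf, Cfap, Rsph, Tekt or Drc followed by a digit, together with Foxj1. The rule found 65 members among 19463 genes, namely 15 Dnah, 4 Dnaaf, 30 Cfap, 8 Rsph, 4 Tekt and 3 Drc genes and Foxj1. No gene carried a Dnai symbol in the GENCODE M21 annotation, and Tekt3 and Cfap97d1, which also fit the rule there, had no row in the table. RNA from the whole brain of male C57BL/6J mice was sequenced at 3 weeks (P21) and 10 weeks (P70) of age, in 5 Katnal2-KO and 5 wild-type (WT) mice per age and 20 in all. Katnal2 encodes a katanin-like ATPase of the family that severs microtubules. KO mice were homozygous for a germline deletion of exon 3 of Katnal2, made by Flp and then Cre recombination of an EUCOMM tm1a allele, so that the gene was altered in every tissue, and WT mice carried no deletion. A whole brain holds ependymal cells and choroid plexus epithelium as a small part of its RNA, and fewer cells of a type and less RNA per cell cannot be told apart in such samples.

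Motile cilia beat because dynein arms slide the outer microtubule doublets of the axoneme against each other, and in the brain they cover the ependymal cells that line the ventricles and move cerebrospinal fluid. The Dnah genes encode the dynein heavy chains that do the sliding, and the Dnaaf genes encode cytoplasmic factors that assemble the arms before they enter the cilium. Rsph genes encode the radial spokes that pass signals from the central pair to the dyneins, Drc genes the nexin-dynein regulatory complex that links neighbouring doublets, Tekt genes the tektin filaments inside the doublet, and Cfap genes a mixed group of cilia- and flagella-associated proteins. Foxj1 encodes the forkhead factor that switches on the motile cilia programme, and RFX factors, which bind a motif called the X-box, act beside it on many ciliary genes.

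The promoters of the members were read from RefSeq windows of 300 bases on GRCm38.p6, which run from 250 bases before to 50 bases after each gene start. Windows were found for 52 of the 65 members, 59 windows in all. The full X-box, on either strand, was present in the windows of 20 of these 52 members (38.5%), against 4.8% of all 27025 genes with a window. The shorter RFX core motif GTTGCC, also on either strand, was present in 21 members (40.4%) and in 14.1% of all genes. It can lie inside an X-box, and 12 of the 59 windows held both motifs. The forkhead core TGTTTA, searched on both strands, was present in 10 members (19.2%) and in 15.1% of all genes. By family, the X-box was found in 12 of 23 Cfap, 3 of 4 Tekt, 2 of 3 Dnaaf, 1 of 3 Drc, 1 of 5 Rsph and 1 of 14 Dnah members with a window. In 14 members it lay wholly before the start, at a median of 14.5 bases from it, and in 13 of the 14 within 100 bases, whereas over all windows with one before the start the median was 85.0 bases and 56.3% lay within 100 bases. A match of these letters is a description of the sequence and not a measured binding site.

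The stretches below are those of members named in the results whose match lay wholly before the start. They are written 5′ to 3′ on the strand of the gene, with the X-box in capitals and the neighbouring bases in lower case. All of these genes are on the minus strand. The stretches span chr7:139683816-139683839 for Cfap46, chr7:83794865-83794894 for Cfap161, chr11:29247276-29247305 for Cfap36, chr12:69198430-69198476 for Dnaaf2, chr7:4532585-4532658 for Dnaaf3 and chr11:72361883-72361927 for Tekt1. The starts are those of RefSeq. In GENCODE M21 the match of Cfap36 lies inside the first exon, and that of Cfap161 reaches into it. The match of Tekt1 lies inside the gene as annotated there, which starts at 72362442, but in no protein-coding exon.
Cfap46: tgggccccGTCTCTAGGCAACcgc
Cfap161: actgcctgGTCGTCATGGCAACgaagcacg
Cfap36: ctgcgtacGTTGTCATAGCGACcattttac
Dnaaf2: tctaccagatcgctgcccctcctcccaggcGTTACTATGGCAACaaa
Dnaaf3: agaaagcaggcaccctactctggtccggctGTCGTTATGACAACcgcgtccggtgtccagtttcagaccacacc
Tekt1: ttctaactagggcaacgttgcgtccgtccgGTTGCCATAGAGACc

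The windows of Dnah7b and Drc1, the highest members of their families by level per length, held no X-box but an RFX core motif, in capitals, at chr1:46066660-46066725 and chr5:30281374-30281392 on the plus strand. The motif of Dnah7b lies after the GENCODE M21 start of the gene at 46066315, in no protein-coding exon.
Dnah7b: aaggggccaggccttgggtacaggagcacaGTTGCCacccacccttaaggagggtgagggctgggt
Drc1: tttcccttGGCAACggctt

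The libraries held about 23400000 to 35600000 reads per mouse, as estimated from the spacing of low values, and their deposited values are normalised to similar sums. The group medians of this estimate were 31000000 in P21 KO and 34800000 in P21 WT mice. At P70 they were lower, at 24500000 in KO and 24200000 in WT mice. Replicate 5 of P70 KO and replicate 5 of P70 WT stood apart, with a mean correlation across genes of 0.966 and 0.975 with the other mice of their group against 0.980 to 0.983 for the other P70 mice. In these 2 mice the 372 non-member genes with a transcript of 10 kb or longer lay a median of 0.57 and 0.40 on the log2 scale below the median of the 10 P70 mice, and genes with a transcript under 3 kb lay 0.23 and 0.19 above it. The targeted gene Katnal2 (chromosome 18, exon 3 removed, other exons still counted) had 78.1 to 96.0 normalised counts in P21 KO and 99.3 to 115.4 in P21 WT mice, without overlap between the groups (exact permutation p = 0.00794, two-sided, n = 5 per group). At P70 it had 95.1 to 125.5 in KO and 101.3 to 141.5 in WT mice, and the groups overlapped (exact permutation p = 0.0794). The 24 markers of neurons, astrocytes, oligodendrocytes, microglia and endothelium were all present, the lowest group mean being 232 normalised counts for Tek. Among ependymal markers outside the rule, all 9 had reads, and their summed values ranged from 389.8 to 751.3 in P21 KO, 418.0 to 560.4 in P21 WT, 521.5 to 724.7 in P70 KO and 457.0 to 738.4 in P70 WT mice.

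All 65 members had a value above 0 in every mouse. Levels are given as normalised counts per kb of the longest protein-coding transcript, averaged over the 20 mice, so that long and short genes can be set side by side. They ran from 1.68 per kb for Dnah8 to 1166 per kb for Cfap36, with a median of 20.3 over the members, and 12 members were above 100 and 19 below 10. The dynein heavy chains, whose transcripts measure 12.0 to 16.7 kb, were low throughout, with a median of 9.21 and a highest level of 24.8 for Dnah7b, an inner arm chain. The median was 20.8 per kb for Cfap, 41.3 for Dnaaf, 45.9 for Tekt, 65.3 for Rsph and 109 for Drc genes, and Foxj1 itself stood at 130 per kb.

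**Figure D1:**
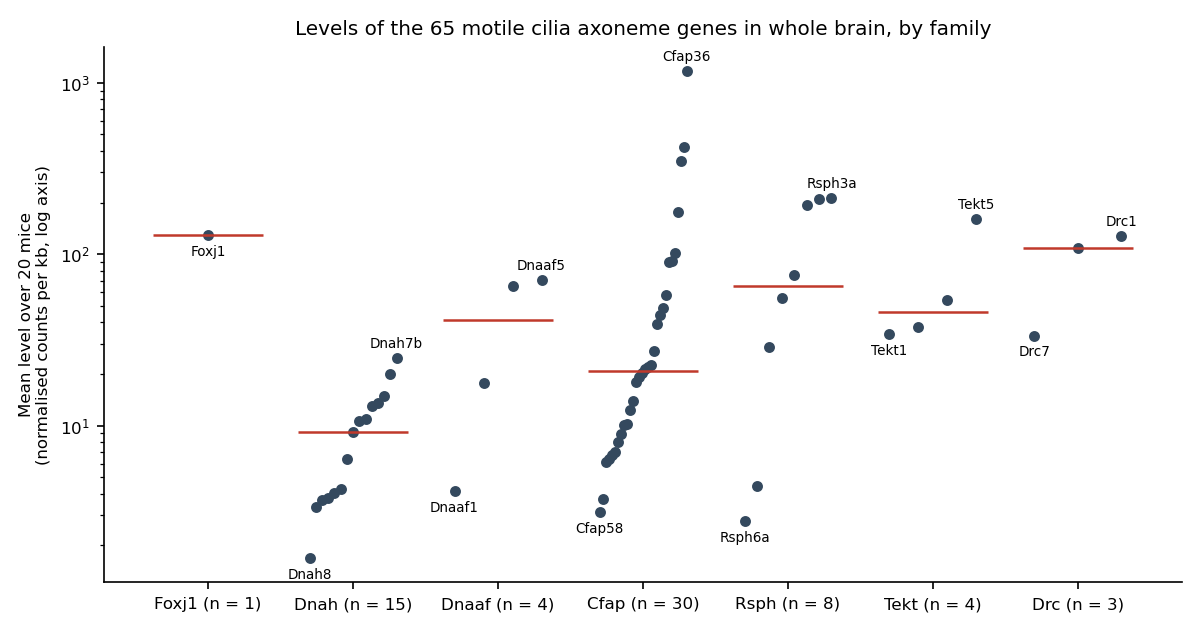
Mean level of each of the 65 members over the 20 mice, in normalised counts per kb of transcript on a log axis, by family, with the family median as a red line and the highest and lowest member of each family named. The Dnah members lie between 1.68 and 24.8 and the Cfap members spread from 3.14 to 1166.

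Cfap36, a protein that binds small ARL GTPases, was the highest member in each of the 4 groups, at 1154 per kb in P21 KO, 1199 in P21 WT, 1141 in P70 KO and 1169 in P70 WT mice. It was followed by Cfap20 at 420 per kb, a protein of the inner junction of the doublet, and Cfap298 at 347, a factor of dynein assembly. Cfap36 had group means of 1899 to 1995 normalised counts, and the 9 ependymal markers summed had group means of 476.7 to 591.7. Which cells of the brain the reads of these members came from was not tested. The spoke stalk genes Rsph3a and Rsph3b stood at 212 and 209 per kb, but they are near-identical copies that can share reads. Summed, they gave 866.1 to 1043 normalised counts in P21 KO, 843.9 to 1103 in P21 WT, 860.8 to 1047 in P70 KO and 719.8 to 963.5 in P70 WT mice, with all 4 groups overlapping. Tekt5 stood at 160, Drc1 at 128, Drc3 at 109, Rsph1 at 75.5, Dnaaf5 at 70.4, Dnaaf2 at 64.8, Tekt4 at 54.1, Tekt1 at 34.0 and Drc7 at 33.5 per kb. The kit does not mark strand, and 23 of the 65 members have an exon that overlaps an exon of another gene in the table, so their reads could not all be assigned with certainty. Dnaaf2 (9330151L19Rik), Dnah11 (Cdca7l), Dnah17 (Pgs1), Dnaaf3 (Tnni3) and Dnaaf5 (Gm15672) are among them.

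The first comparison asked whether loss of Katnal2 was accompanied by a different level of these genes at P21. No member passed the threshold, and 5 of the 58 tested members had an unadjusted p under 0.05, all with a higher level in KO mice. They were Foxj1, Cfap46, Dnaaf2, Dnah11 and Drc7, with fitted differences of 0.23 to 0.36 on the log2 scale. Tests were made with limma on log2(value + 1) across the 17610 genes whose mean reached 10, and p-values were adjusted over them by Benjamini-Hochberg at 0.05. No gene of the whole table passed either (0% of those tested), and the adjusted p of every member was 1.00. The unadjusted count is 8.62% of the members tested, beside 2.44% of all genes in either direction and 1.49% that were higher. In 1 fit of all 20 mice the count was 2 (3.45%, beside 1.14% of all genes), Cfap46 and Dnaaf2, with Foxj1, Dnah11 and Drc7 no longer under 0.05. Drc7 was also lost with quantile normalisation and with a filter of 50. When 1 mouse at a time was left out the count was 3 to 7, lowest without P21 KO replicate 2. These were 5.17% to 12.1% of members, beside 2% to 3.73% of all genes over the same fits. Foxj1, Cfap46 and Dnaaf2 were among them each time. The 7 members outside the test for low values were Cfap53, Cfap58, Cfap73, Cfap221, Cfap299, Rsph6a and Rsph14.

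Foxj1 (ENSMUSG00000034227, chromosome 11, 116330704 to 116335399, minus strand) had 314.2, 326.8, 412.5, 323.7 and 354.3 normalised counts in the P21 KO mice. In the P21 WT mice it had 269.9, 290.1, 317.1, 241.3 and 299.5. All but 1 of the KO values lay above the highest WT value, and the groups overlapped only between the lowest KO mouse and the highest WT mouse. The KO mean of 346 ± 39.9 and the WT mean of 284 ± 29.1 (SD, n = 5 each) gave a difference of 0.29 ± 0.09 (SE) on the log2 scale. The unadjusted limma p was 0.00944 and the adjusted p 1.00, and the exact permutation test of this gene alone gave p = 0.0159 (two-sided).

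Cfap46 (ENSMUSG00000049571, chromosome 7, 139600951 to 139683817, minus strand), a protein of the central pair apparatus, had 203.2, 186.5, 202.1, 197.6 and 221.7 normalised counts in P21 KO mice. It had 180.0, 135.5, 156.7, 152.9 and 162.4 in P21 WT mice. Every KO mouse lay above every WT mouse, and Cfap46 was the only member with groups that did not overlap, beside 0.46% of all genes tested in either direction and 0.256% with KO higher. The difference was 0.36 ± 0.09 on the log2 scale (limma, unadjusted p = 0.00139, adjusted p = 1.00), from means of 202 ± 12.7 and 158 ± 16.1 (SD, n = 5 each).

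Dnaaf2 (chromosome 12, 69189087 to 69198429), a co-chaperone of dynein arm assembly also called kintoun, had 226.2 to 258.3 normalised counts with a median of 243.1 in P21 KO mice and 180.3 to 228.0 with a median of 211.4 in P21 WT mice. Only the lowest KO mouse lay within the WT range, and the difference was 0.23 ± 0.08 (limma, unadjusted p = 0.0125). Dnah11 (chromosome 12, 117877982 to 118199043), an outer arm heavy chain, had 177.3, 192.9, 161.1, 191.3 and 156.1 normalised counts among KO mice. Its WT values were 181.4, 105.9, 150.7, 115.8 and 141.7. The highest WT mouse lay inside the KO range and the other 4 below it, and the difference was 0.36 ± 0.14 (limma, unadjusted p = 0.022). Drc7 (chromosome 8, 95055103 to 95078141), a subunit of the nexin-dynein regulatory complex, had 89.2, 106.7, 97.7, 86.3 and 75.7 normalised counts among KO mice. Its WT values were 80.4, 84.4, 76.3, 65.6 and 69.4. The lowest KO mouse lay below 3 of the WT mice, and the difference was 0.27 ± 0.12 (limma, unadjusted p = 0.0447).

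The fitted difference at P21 was above 0 in 39 of the 58 tested members (67.2%), beside 52.5% of all genes tested, and its median was 0.05 against 0.00 over all genes. These counts are given by family. Of the 15 Dnah members 13 were fitted higher in KO mice, with a median of 0.23, and all 4 Dnaaf members were, with a median of 0.16. In the Cfap family 14 of 25 were higher (median 0.03), in the Tekt family 3 of 4 (0.03), in the Drc family 2 of 3 (0.07), and in the Rsph family 2 of 6 (-0.03). Beside Dnah11, the Dnah members with the highest fitted differences were the inner arm chains Dnah10 at 0.41 ± 0.21, Dnah3 at 0.37 ± 0.23 and Dnah7b at 0.31 ± 0.15, and Dnah14 at 0.41 ± 0.45. Dnah7a, Dnah7b and Dnah7c are near-identical copies, and their sum was 402.5 to 468.0 in KO and 290.4 to 452.1 in WT mice, with overlap. The Dnah members share their transcript length with other long genes, and P21 WT replicate 3 had both the lowest Dnah values, at a median of 0.35 below the P21 mice, and the lowest values of the other genes of 10 kb or longer, at 0.30 below them. In P21 KO replicate 3 those long genes lay 0.24 below the P21 mice, and the Dnah members lay 0.01 above them. The part of P21 WT replicate 3 in the Dnah counts was not tested.

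**Figure D2:**
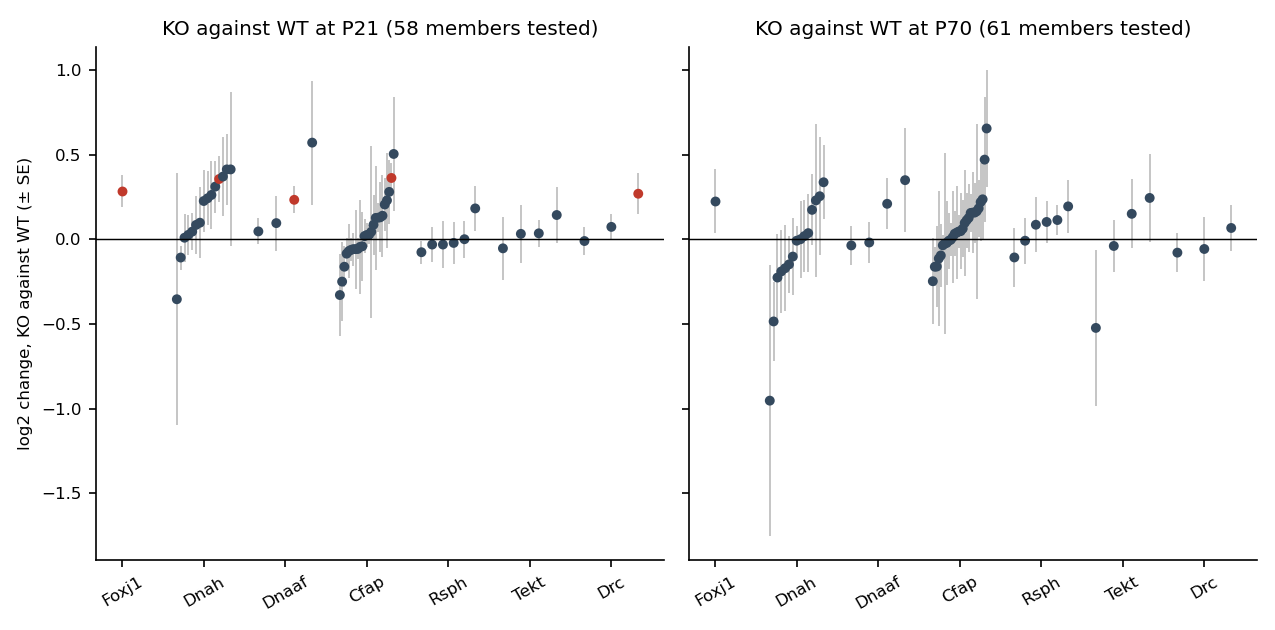
Fitted log2 difference between KO and WT mice (± SE) for each tested member by family, at P21 (left, 58 members) and P70 (right, 61 members), with members of unadjusted p under 0.05 in red. At P21 the 5 red points all lie above 0 and 13 of 15 Dnah members do, and at P70 no point is red.

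Dnah7b, described above, is the highest Dnah member per length, and the highest members of the other families had these fitted differences at P21. Cfap36 differed by -0.06 ± 0.06, Drc1 by -0.01 ± 0.08, Tekt5 by 0.04 ± 0.08, Rsph3a by -0.03 ± 0.10 and Dnaaf5 by 0.05 ± 0.08 on the log2 scale. Rsph1, a spoke head protein with the smallest p of its family (limma, unadjusted p = 0.196), had 70.2 to 112.4 in KO and 68.3 to 80.0 in WT mice. The smallest p among the tektins was that of Tekt1 (0.14 ± 0.17, unadjusted p = 0.403).

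The second comparison put the same question at P70. None of the 61 tested members passed the threshold in limma and none had an unadjusted p under 0.05, beside 0% and 1.13% of the 17613 genes tested. Without both replicate 5 mice 2 members had an unadjusted p under 0.05, Dnah3 with a fitted difference of 0.67 in place of 0.25 and Cfap77 with 0.79 in place of 0.47. That is 3.28% of members, beside 3.69% of all genes in the same fit. Dnah17 alone had an unadjusted p under 0.05 in 1 fit of all 20 mice and without P70 KO replicate 3 or P70 WT replicate 4. It was 1.64% of members each time, beside 1.92%, 1.05% and 0.932% of all genes. Cfap77 and Tekt4 were under 0.05 without P70 KO replicate 5 (3.28% of members, beside 2.92% of all genes). With a replicate block Cfap53 and Dnah17 had an unadjusted p under 0.05 (3.28% of members, beside 3.46% of all genes). No member had groups that did not overlap, beside 0.193% of all genes. The 4 members not tested were Cfap73, Cfap299, Rsph6a and Rsph14. The fitted difference was above 0 in 35 members (57.4%; 47.8% of all genes), with a median of 0.04 against -0.00. Of the Dnah members 7 were fitted higher and 8 lower, with a median of -0.01, and the medians of the other families ran from -0.06 for Drc to 0.10 for Dnaaf.

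Foxj1 had 349.3, 323.8, 391.9, 333.7 and 565.5 normalised counts in P70 KO mice and 324.1, 354.3, 230.7, 314.6 and 453.9 in P70 WT mice. The highest value of each group was that of its replicate 5, the mice that stood apart, and the groups overlapped. The means were 393 ± 99.98 and 336 ± 80.5 (SD, n = 5 each), a difference of 0.23 ± 0.19 on the log2 scale (limma, unadjusted p = 0.252, exact permutation p = 0.381). Leaving out both replicate 5 mice gave a limma difference of 0.21 (unadjusted p = 0.128, adjusted p = 1.00).

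At P70 the KO mean of Cfap46 lay below the WT mean. It had 197.6, 176.6, 195.3, 139.3 and 193.7 normalised counts among KO mice, against 204.1, 203.1, 189.0, 187.6 and 219.8 among WT mice, and the difference was -0.16 ± 0.12 (limma, unadjusted p = 0.187, exact permutation p = 0.127). The values of both genotypes overlapped, with the lowest mouse of all in the KO group. Dnaaf2 (-0.04 ± 0.12), Dnah11 (0.17 ± 0.21) and Drc7 (-0.06 ± 0.19), which had an unadjusted p under 0.05 at P21, had unadjusted limma p values of 0.765, 0.423 and 0.769 at P70.

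The member with the smallest p at P70 was Dnah17 (chromosome 11, 118021723 to 118130634), an outer arm heavy chain best known from sperm. It had 42.9, 35.5, 68.8, 57.4 and 53.1 normalised counts among KO mice, against 69.0, 80.7, 98.8, 44.1 and 72.4 among WT mice. The KO mice lay lower on average by 0.48 ± 0.23 on the log2 scale (limma, unadjusted p = 0.0599, adjusted p = 1.00), and the lowest WT mouse lay below 3 of the KO mice. Cfap53 (chromosome 18), a protein inside the doublet, had 32.9, 16.1, 11.2, 12.4 and 16.8 among KO mice, against 15.3, 9.3, 7.1, 7.2 and 14.7 among WT mice. The fitted difference was 0.65 ± 0.34 (limma, unadjusted p = 0.0812). Without KO replicate 1, the highest mouse, it was 0.42. Tekt4 differed by -0.52 ± 0.46, Dnaaf3 by 0.21 ± 0.15, Rsph3b by 0.11 ± 0.09 and Drc3 by -0.08 ± 0.11, which are the smallest p values of their families. For Tekt4, P70 KO replicate 5 had 122.0 normalised counts and the other KO mice 18.7 to 48.3. Without both replicate 5 mice its difference was -0.72.

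**Figure D3:**
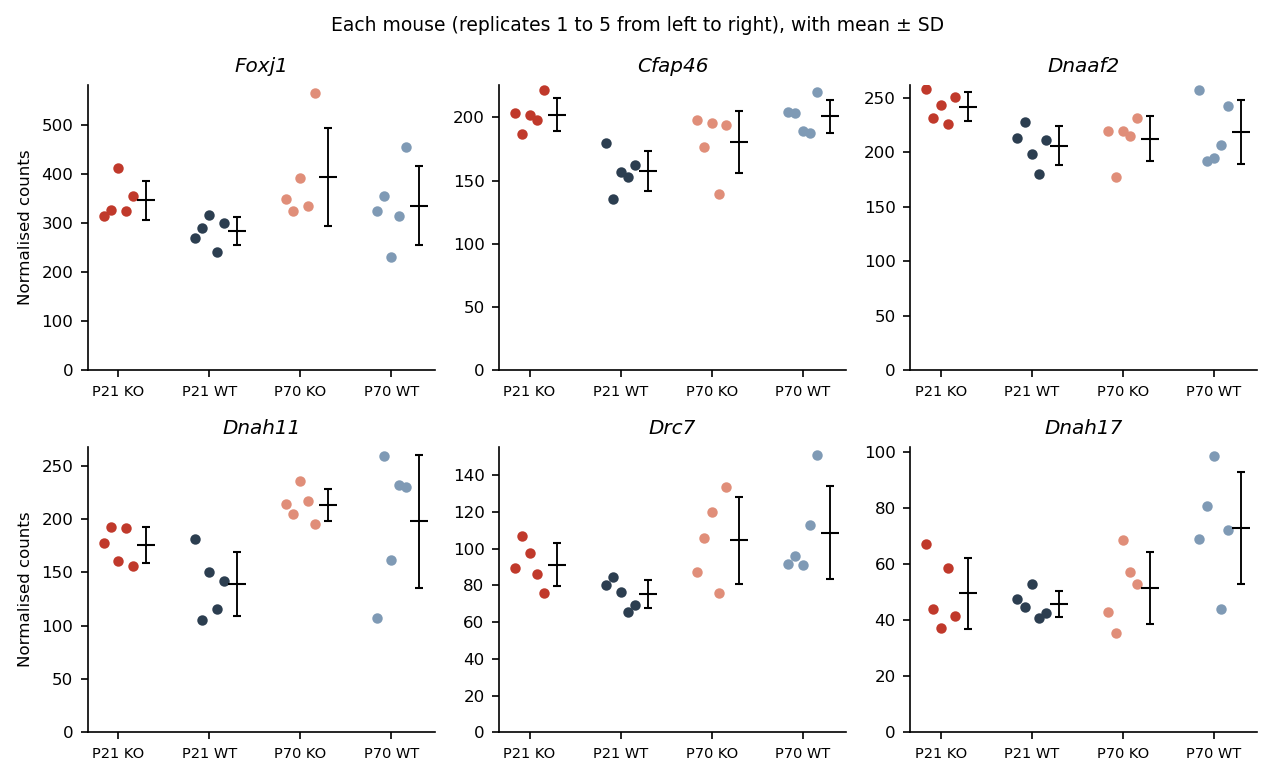
Normalised counts of 6 members in each mouse by group, replicates 1 to 5 from left to right, with the mean ± SD beside them. Cfap46 separates P21 KO from P21 WT mice and no gene shown separates P70 KO from P70 WT mice. The highest Foxj1 values at P70, 565.5 and 453.9, belong to the replicate 5 mice.

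The mice of the comparisons at P21 and P70 are different animals. Of the 58 members tested at both ages, 21 were fitted higher in KO mice at both (36.2%, beside 25.7% of all 17293 genes tested at both ages) and 7 lower at both. Of the 15 Dnah members, 7 were higher at both ages, 6 higher at P21 and lower at P70, and 2 lower at both. The same sign at both ages was seen in 48.3% of the members and 51.2% of all genes. The change of the genotype difference between ages was tested as an age by genotype interaction over the 20 mice. No member and no gene passed (0% of 17637 tested by limma), and 1 of 61 members, Cfap46, had an unadjusted p under 0.05, beside 1.68% of all genes. Its interaction was -0.52 ± 0.14 on the log2 scale (unadjusted p = 0.00135, adjusted p = 1.00), and that of Foxj1 was -0.06 ± 0.22 (unadjusted p = 0.795).

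The third comparison followed the members from P21 to P70 in WT mice. Among the 57 members tested, Cfap161 and Cfap46 rose and none fell, that is 3.51% of members beside 9.32% of 17630 genes tested in either direction and 4.62% that rose. At an unadjusted p under 0.05 there were 12 members, 10 higher and 2 lower at P70, or 21.1%, beside 24.5% of all genes. Groups without overlap were seen in 5 members, all higher at P70 (8.77%), beside 10.8% of all genes in either direction and 5.2% with P70 higher. The median fitted difference was 0.11 over the members and 0.00 over all genes, and 38 members were fitted higher, beside 50.2% of all genes. Cell type markers also differed between the ages in WT mice. Of 15 choroid plexus markers 13 were fitted higher at P70 (median 0.40, 2 called), of 8 tested ependymal markers 7 (median 0.31, none called), and all 5 oligodendrocyte markers fell (median -1.09). Their part in the member values was not tested. Age, the lower estimated depth at P70 and whatever else differed between the 2 sets of libraries cannot be told apart here. Trp73, as 1 of 10 regulators of the multiciliated programme, and Wdr78, as 1 of 52 tested axoneme genes outside the rule, passed with a rise, and 1 of 31 genes of primary cilium transport, Ift46, passed with a fall, beside the 4.62% of all genes that rose and 4.7% that fell.

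Cfap161 (ENSMUSG00000011154, chromosome 7, 83774101 to 83794880, minus strand), a protein inside the doublet microtubule, had 23.7, 17.9, 21.2, 16.4 and 14.7 normalised counts in P21 WT mice and 32.6, 32.7, 25.4, 32.6 and 35.6 in P70 WT mice. Every P70 mouse lay above every P21 mouse, and the rise was 0.74 ± 0.20 (limma, adjusted p = 0.0314). In KO mice its values were 15.5 to 43.5 at P21 and 15.9 to 37.7 at P70, with a fitted difference of 0.26 ± 0.33 (adjusted p = 0.70). The difference between the genotypes in this change was not past the threshold (interaction -0.48 ± 0.38, unadjusted p = 0.225). Cfap46 rose by 0.35 ± 0.10 in WT mice (adjusted p = 0.0444), again without overlap, from 135.5 to 180.0 at P21 to 187.6 to 219.8 at P70. The 5 P21 WT mice of this comparison are also those against which Cfap46 was higher in P21 KO mice. In KO mice Cfap46 differed by -0.17 ± 0.11 between ages (adjusted p = 0.40).

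Both calls in WT mice were close to the threshold. With a replicate block both were lost (limma, adjusted p = 0.0825 for Cfap161 and 0.0876 for Cfap46), though the replicate numbers mark different mice. Cfap46 lost its call with no filter on low values (limma, adjusted p = 0.0513) and with upper quartile scaling (0.0599), and Cfap161 in 1 fit of all 20 mice (0.0833) and with a filter of 50, which leaves it untested. When 1 mouse at a time was left out, the adjusted limma p ranged from 0.0286 to 0.0831 for Cfap161 and from 0.0443 to 0.108 for Cfap46. Cfap161 lost its call without P21 WT replicate 2, 4 or 5 or P70 WT replicate 1, 2 or 4, and Cfap46 without P21 WT replicate 2, 3, 4 or 5 or P70 WT replicate 1, 2, 3 or 4. Without P70 WT replicate 5 there were 4 members called, with Tekt4 and Cfap20 added at fitted falls of 1.03 and 0.21. The share of members in that fit was 7.0%, beside 17% of 17644 genes. Of the 3 other members that separated the ages in WT mice, Tekt5 went from 234.8 to 278.4 at P21 to 293.5 to 380.1 at P70 (0.27 ± 0.10), Rsph1 from 68.3 to 80.0 to 80.2 to 110.6 (0.35 ± 0.13) and Drc7 from 65.6 to 84.4 to 91.3 to 151.1 (0.50 ± 0.15), with adjusted limma p values of 0.0971, 0.108 and 0.0586. As for Cfap46, the P21 WT mice here are also those against which Drc7 was fitted higher in P21 KO mice.

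The fourth comparison made the same contrast in KO mice, where 2 of 61 tested members, Cfap54 and Tekt4, fell and none rose, that is 3.28% beside 8.32% of 17641 genes tested in either direction and 4.53% that fell. There were 12 members with an unadjusted p under 0.05, 8 higher and 4 lower, or 19.7%, beside 22.7% of all genes, and 3 members had groups without overlap (Dnah11 and Dnaaf3 higher, Cfap54 lower), beside 10.9% of all genes in either direction. Cfap54 (ENSMUSG00000020014, chromosome 10, 92775619 to 93081618, minus strand), a partner of Cfap46 in the central pair apparatus, had 266.5, 231.6, 235.4, 203.9 and 231.4 normalised counts in P21 KO mice. It had 173.0, 142.1, 158.2, 202.1 and 107.5 in P70 KO mice. No P70 mouse reached the lowest P21 mouse, and the fall was 0.60 ± 0.15 on the log2 scale (limma, adjusted p = 0.0296). In WT mice it had 147.7 to 272.9 at P21 and 114.1 to 194.9 at P70 (-0.30 ± 0.19, adjusted p = 0.362).

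Tekt4 (ENSMUSG00000024175, chromosome 17, 25454615 to 25476602, plus strand) had 112.7, 103.9, 153.8, 113.0 and 73.5 normalised counts in P21 KO and 32.0, 48.3, 30.2, 18.7 and 122.0 in P70 KO mice. The P70 mice lay below all P21 mice except replicate 5, one of the mice that stood apart, which lay above 4 of them. The fall was 1.40 ± 0.40 (limma, adjusted p = 0.0499), and without that mouse Tekt4 fell by 1.79 (adjusted p = 0.000434). The call of Tekt4 was lost with no filter on low values (limma, adjusted p = 0.0518), upper quartile scaling (0.0538), quantile normalisation (0.0555) and no intensity trend (0.0782). In WT mice Tekt4 had 81.9 to 121.0 at P21 and 29.2 to 99.9 at P70, with the highest P70 value again in replicate 5 (-0.84 ± 0.27, adjusted p = 0.0723). The interaction for Tekt4 was -0.56 ± 0.52 (unadjusted p = 0.30). Tekt1 had the opposite sign in both genotypes, at 0.47 ± 0.17 in WT and 0.48 ± 0.21 in KO mice (adjusted p = 0.102 and 0.188).

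**Figure D4:**
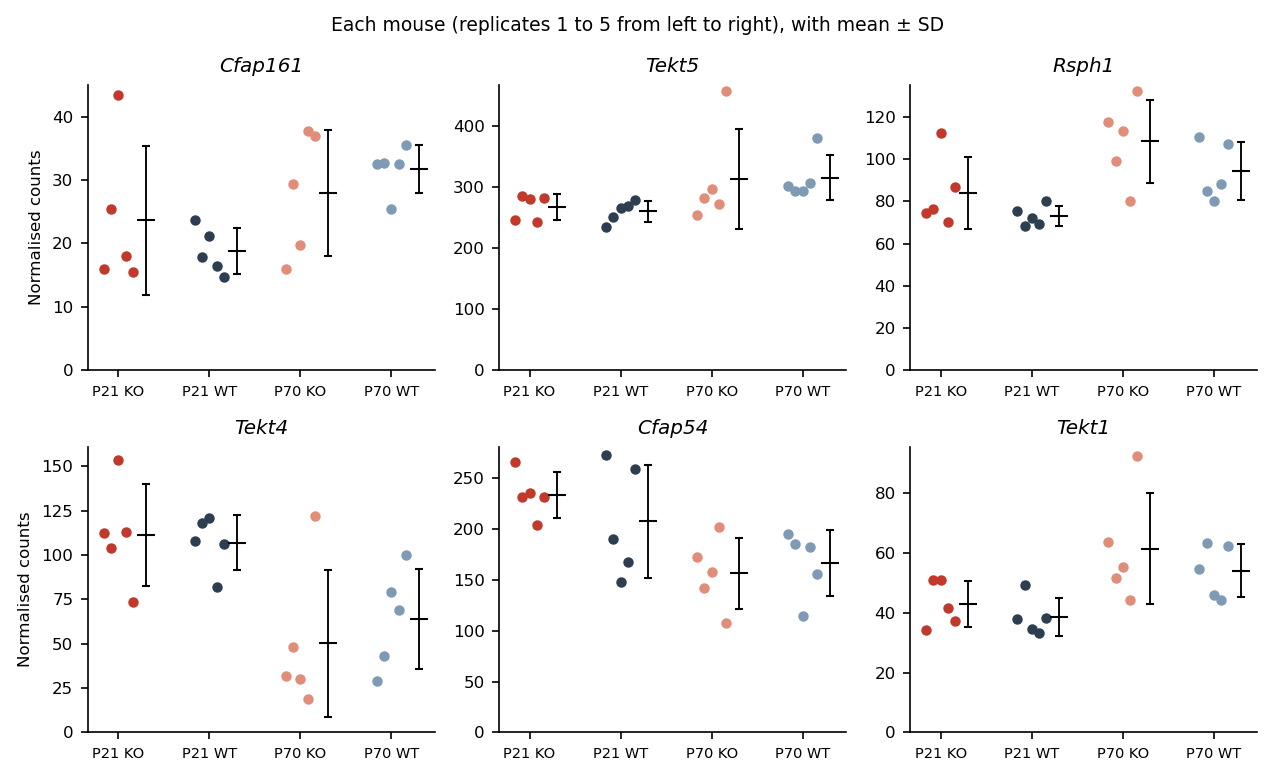
Normalised counts of 6 members in each mouse by group, replicates 1 to 5 from left to right, with the mean ± SD beside them. Cfap161, Tekt5 and Rsph1 separate the ages in WT mice, Cfap54 separates them in KO mice, and Tekt4 is lower at P70 in all KO mice but replicate 5.

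Outside the rule, Rfx2 (0.66 ± 0.15, adjusted p = 0.0148), as 1 of 10 regulators, and Ccdc151 (0.42 ± 0.12, adjusted p = 0.0459), as 1 of 53 tested axoneme genes, rose in KO mice by the limma test, beside 3.78% of all genes that rose. Choroid plexus markers were fitted higher at P70 in 14 of 15 (median 0.30, none called) and ependymal markers in 8 of 9 (median 0.28, none called), and all 5 oligodendrocyte markers fell (median -1.26).

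With the replicate block Cfap54 and Tekt4 both lost their calls (limma, adjusted p = 0.063 and 0.105). The calls in KO mice also moved with single mice. Over the fits that left out 1 mouse, Cfap54 had an adjusted p of 0.0107 to 0.0812 and lost its call without P21 KO replicate 1, 2, 3 or 5 or P70 KO replicate 2 or 3. Tekt4 had 0.000434 to 0.114 and kept its call only without P70 KO replicate 5, losing it in the other 9 fits. Leaving out that mouse gave 8 members called, with Dnah10 and Rsph10b added as lower at P70 and Cfap97d2, Cfap300, Dnah5 and Dnah11 as higher. These were 13.1% of members, beside 21.3% of 17654 genes called in the same fit.

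Single mice stood out across the members. Among the 10 P70 mice, KO replicate 5 had the highest value for 12 of 61 members and WT replicate 5 for 10. Their members other than Dnah lay a median of 0.16 and 0.06 above the P70 mice, and their Dnah members 0.14 and 0.03 below them, with short and long genes outside the rule shifted in the same directions. At P21, KO replicate 3 had the highest value for 12 of 58 members, among them Foxj1 (412.5) and Rsph1 (112.4), and its long genes lay 0.24 below the P21 mice. The part of transcript length in these values was not tested.

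**Figure D5:**
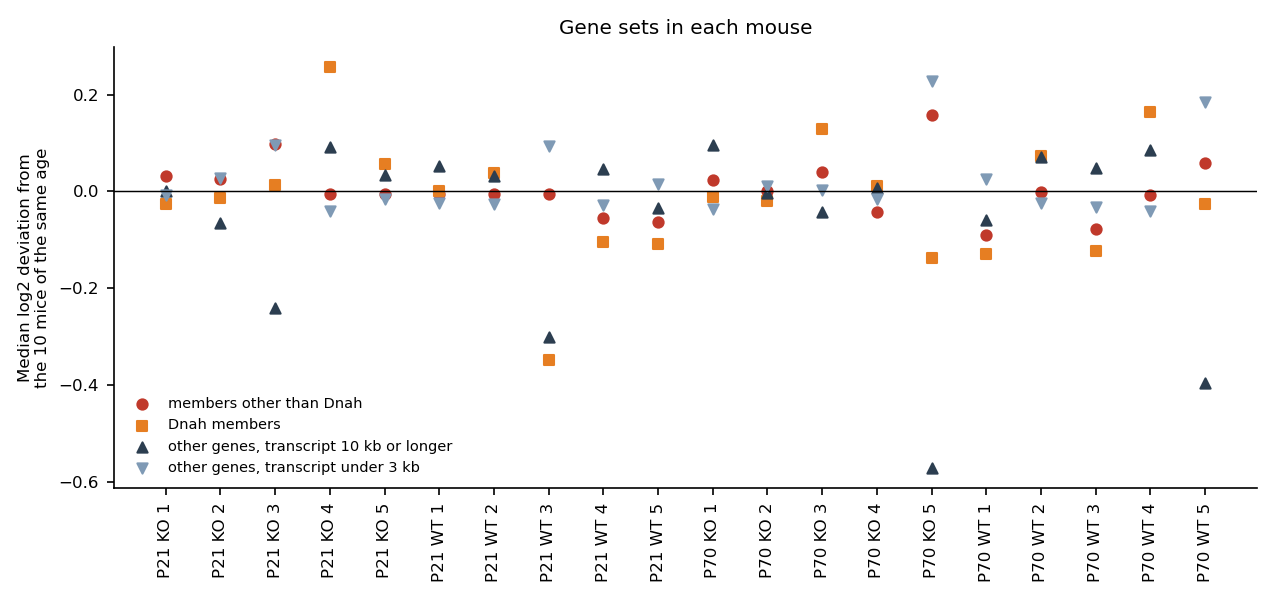
Median log2 deviation of 4 gene sets in each mouse from the median of the 10 mice of the same age: members other than Dnah (circles), Dnah members (squares), other genes with a transcript of 10 kb or longer (upward triangles) and under 3 kb (downward triangles). In P70 KO 5 and P70 WT 5 the long genes lie at -0.57 and -0.40 and the short genes at 0.23 and 0.19.

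Genes of the same pathway outside the rule were counted from lists of symbols. Of 57 other axoneme and beating genes in the table, such as Hydin and Spag17 of the central pair, 36 of 54 tested were fitted higher in KO mice at P21 (median 0.08) and 37 of 53 at P70 (median 0.06), with none called and none at an unadjusted p under 0.05 in limma. Of 10 regulators of the multiciliated programme, such as Gmnc, Myb and Rfx3, 7 and 5 were fitted higher (medians 0.05 and 0.01). Of 31 genes of primary cilium transport, 8 were fitted higher at P21 (median -0.03) and 17 at P70 (median 0.00). Ependymal markers outside the rule were fitted higher in 7 of 8 at P21 and 8 of 9 at P70 (medians 0.15 and 0.15), again with none called. At P21 and then P70, markers of meninges were fitted higher in 6 of 6 and 5 of 6. For oligodendrocytes it was 5 of 5 and 0 of 5, and for endothelium 0 of 4 and 4 of 4. For microglia it was 3 of 5 and 5 of 5, and for astrocytes 4 of 5 and 1 of 5. For neurons it was 2 of 5 and 2 of 5, and for tanycytes 0 of 3 and 2 of 3. None of these markers was called.

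Markers of the choroid plexus, whose epithelium also carries cilia, were counted in the same way. Of 15, 14 were fitted higher in KO mice at P21 (median 0.21) and 15 at P70 (median 0.19), with none called and 4 at an unadjusted p under 0.05 at P21. Of all genes, 52.5% at P21 and 47.8% at P70 were fitted higher, and 2.44% had an unadjusted p under 0.05 at P21, 1.49% with KO mice higher. Their summed values were 1906 to 2716 in P21 KO and 1643 to 2196 in P21 WT, 2229 to 3361 in P70 KO and 2129 to 3595 in P70 WT mice, and no defining marker was at 0. The part of choroid plexus in the dissected tissue in the member values was not tested. Members with an X-box in their window had a median fitted difference of 0.12 at P21 (18 tested) and 0.03 at P70 (20 tested), and members whose window held none had 0.03 (30 tested) and 0.01 (30 tested). The highest medians were those of the members with no window, Foxj1 among them, at 0.16 (10 tested) and 0.11 (11 tested).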

How the data were processed

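Whole-brain RNA of 20 mice was measured by poly-A, unstranded sequencing (paired reads, RIN above the study's limit). The authors made the deposited signal values, which are DESeq2-normalised counts, from Salmon transcript estimates (GRCm38, corrected for GC bias) that were imported with tximport. The submitters' processing notes give Salmon 1.1.0, R 3.6.2 and DESeq2 1.26.0. Whole reads could not be recovered, so no count test was run. Symbols, coordinates and transcript lengths came from GENCODE M21, which matched 19447 of 19463 IDs.

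Values were tested with limma 3.58.1 in R 4.3.3 on log2(value + 1), with the variance moderated along an intensity trend, separately for each pair of groups and for genes whose mean reached 10. P-values were adjusted by Benjamini-Hochberg over all genes tested, with a threshold of 0.05. Differences on this scale understate the change of low genes. Only the interaction used all 20 mice. The test was tried on simulated data first.

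Named members were Foxj1, the highest member per kb of each family, the smallest p of each family in both KO against WT fits, and members called with age in WT mice. Cfap54 and Tekt4 with age in KO mice, Cfap46 in the interaction, and all other members with values in the text were named after their values were seen. The members, marker lists and tests were chosen with earlier results of these data known. Reads per mouse are approximate. The 12 exact permutation tests of Katnal2, Foxj1 and Cfap46, 4 of each, were two-sided and are not adjusted. Alternatives were other pseudocounts, filters and scalings, 1 fit of all mice, a replicate block and each mouse left out. Each replicate is a separate mouse.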

Additional observations from a re-analysis of the deposited data

Results flagged for a closer look

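In the 84 groups of 5 mice formed by 21 of the members described, the 20 named by the rule and Cfap54, 6 held a mouse whose gap to its neighbour exceeded the critical share of the range of the group in Dixon's test at 95%. Chance gives about 1 such group in 20. Of the 6 values, 5 belong to the P70 replicate 5 mice. In P70 KO replicate 5 they were Foxj1 at 565.5 normalised counts (next highest mouse 391.9), Tekt4 at 122.0 (48.3), Tekt5 at 456.0 (296.1) and Dnaaf3 at 53.7 (45.2). In P70 WT replicate 5 it was Tekt5 at 380.1 (305.8). The remaining value was Cfap53 in P70 KO replicate 1 at 32.9 (16.8). The cause was not tested.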

How the results depend on the processing

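With KO against WT, 0 members were called at both ages under every alternative that was run with the adjusted threshold. By unadjusted p there were 5 at P21, against 2 in 1 fit of all 20 mice. There were 4 with quantile normalisation, 4 with a filter of 50, 6 with no filter and 3 to 7 when 1 mouse was left out. In that order these were 8.62%, 3.45%, 6.9%, 9.76%, 9.23% and 5.17% to 12.1% of members tested. All genes gave 2.44%, 1.14%, 2.47%, 2.28%, 2.62% and 2% to 3.73% in the same fits. The interaction gave 0 members throughout and 1 by unadjusted p (1.64%, beside 1.68% of all genes), against 1 to 4 when 1 mouse was left out. The count of 4 was without P70 KO replicate 5 (6.56%, beside 3.77% of all genes). With age in WT mice, 2 members were called, against 1 with no filter (Cfap46 lost), 1 with a filter of 50 (Cfap161 not tested), 1 with upper quartile scaling (Cfap46 lost), 4 with quantile normalisation, 0 with the replicate block and 12 by unadjusted p, and from 0 to 4 when 1 mouse was left out. With age in KO mice, 2 were called, against 1 with no filter, 1 without the intensity trend, 1 with quantile normalisation, 1 with upper quartile scaling (Tekt4 the member lost in these 4), 0 with the replicate block and 12 by unadjusted p, and from 0 to 8 when 1 mouse was left out. In 1 fit of all 20 mice the count was again 2 in WT mice, with Drc7 (adjusted p = 0.0459) in the place of Cfap161, and 3 in KO mice, with Dnah10 added (adjusted p = 0.0243). The 2 members called were 3.51% in WT and 3.28% in KO mice, beside 9.32% and 8.32% of all genes. Those by unadjusted p were 21.1% and 19.7%, beside 24.5% and 22.7%. The counts of 4 and 8 without P70 replicate 5 were 7.0% and 13.1%, beside 17% and 21.3%. Shares of all genes are not given for the other age fits, so those counts cannot be read as results about the members. The block leaves fewer residual degrees of freedom, and the replicate numbers mark different mice. Same-numbered mice deviated together with correlations of -0.009 to 0.26 at P21 and 0.075 to 0.705 at P70, and 3 and 4 of 5 mice correlated best with their own number. The 0.705 belongs to the replicate 5 mice, which stood apart, and the other P70 pairs had 0.075 to 0.175. With the block, members with an unadjusted p under 0.05 in limma numbered 7 at P21 (12.1%, beside 4.16% of all genes), with Dnah10 and Dnah7b added, 2 at P70 (3.28%, beside 3.46%), Cfap53 and Dnah17, and 3 in the interaction (4.92%, beside 4.03%). Between ages the correlations ran from -0.102 to 0.156 in WT and -0.119 to 0.16 in KO mice.

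Of 441 values of single members under an alternative, 397 kept their direction and their side of the threshold, 40 kept only their direction and 4 changed sign. All 40 were lost calls of Cfap161 and Cfap46 with age in WT or Cfap54 and Tekt4 with age in KO mice. Only these had a call to lose. The other values were not called in the main fit and none gained a call, so the 397 are no measure of how stable the calls were. Leaving out 1 mouse moved Drc3 at P70 between -0.13 and 0.0063 and the interaction of Foxj1 between -0.20 and 0.059. Leaving out both P70 replicate 5 mice was chosen after seeing the data and changed no adjusted call of the P70 and interaction comparisons. The count by unadjusted p went from 0 to 2 at P70 (Dnah3 and Cfap77), or 3.28% of members beside 3.69% of all genes. A count test with edgeR or DESeq2 was not run, since whole reads could not be recovered.

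The median standard error of a member's difference between KO and WT mice was 0.15 on the log2 scale at P21 and 0.21 at P70, which limits the differences these groups can show, and members with a mean under 10 were not tested. Reads of overlapping genes and near-identical copies cannot be told apart in these values.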
